A study of Mus musculus with 4 samples.

Results

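The genes described here make, reduce, bind and break down retinoids in cultured mouse germline stem cells in which Nanos2 was switched on. They were chosen by name: the probes whose gene name, or the current symbol of whose accession, was Rdh10, Aldh1a1, Aldh1a2, Aldh1a3, Dhrs3, Cyp26a1, Cyp26b1, Crabp1 or Crabp2. All 9 genes were found, among 27750 gene or transcript names on the array, with 13 probes in all. On 2 or more of the 4 arrays, 12 of these probes stood well above background, and the remaining one, for Aldh1a3, did so on none.

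Total RNA was read on 4 Agilent 1-colour arrays, 2 from cells given 4-hydroxytamoxifen (called Tamoxifen in some labels) and 2 from cells given DMSO, each for 48 hours. Germline stem cells are spermatogonial stem cells of the testis kept in culture. Cells of both groups carried the CreERT2 recombinase from the Rosa locus, which acts in most cell types and which 4-hydroxytamoxifen activates, and the construct CAG-CAT-3FlagNanos2-pA, which expresses tagged Nanos2 from a general promoter after recombination. They grew on mitomycin-treated fibroblasts of C57Bl6 embryos, with GDNF and EGF at 20 ng/ml each and FGF2 at 10 ng/ml, and the feeders were removed before RNA extraction. Whether the cells were 1 clone was not given in the sources used here. No group took 4-hydroxytamoxifen without the construct, so what Nanos2, the recombinase and the compound each do cannot be told apart.

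Retinoic acid is made from retinol in 2 oxidation steps. RDH10 turns retinol into retinal, DHRS3 turns retinal back into retinol, and the ALDH1A enzymes oxidise retinal to retinoic acid. CRABP1 and CRABP2 carry retinoic acid inside the cell, CYP26 enzymes oxidise it for removal, and what remains acts through the RAR and RXR nuclear receptors. In the testis, retinoic acid drives spermatogonia to differentiate and to enter meiosis.

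Signals are given scaled, so that the 75th percentile of each array is 100. Differences are on the log2 scale, 4-hydroxytamoxifen minus DMSO, ± the standard error of the limma fit, with 2 arrays per group. Adjusted p-values are limma's, by Benjamini-Hochberg over 17727 genes, with a threshold of 0.05. Some differences are also given with normexp background correction, a processing alternative that adds a constant to every signal. The constant alone draws the differences of dim probes towards 0. Since probes differ in how well they bind, levels were compared between groups and not between genes. The summed signals of marker lists add unlike probes, so a gene's part in a sum also depends on its probe. Nothing in the labels says that replicates came from separate cultures. The p-values therefore cover the spread of these samples alone, and that spread may be technical.

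Nanos2 itself was at 134 and 158 in 4-hydroxytamoxifen cells, against 49.7 and 49.0 in DMSO cells. Between 62.1% and 65.9% of spots were well above background on each array, and all 4 arrays sat on 1 slide. The cells carried the transcripts of their label: all 15 spermatogonial markers on the list that could be looked up were measured, 14 of them well above background on every array. So were 16070 of all 17727 measured genes and all 23 measured fibroblast markers, so detection alone does not tell the cell type. Of the 15 spermatogonial markers, 11 were lower and 1 was higher in 4-hydroxytamoxifen cells, with a median of -0.86. Over all genes, 29.0% were called lower and 40.4% higher. The largest falls among these markers were Nanos3 (-4.76 ± 0.13, and -3.17 with normexp correction) and Lhx1 (-2.53 ± 0.13). Other markers of the list did not move this way: Ddx4 (-0.17), Sall4 (-0.16) and Mael (0.13) did not pass, and Utf1 rose by 0.91. Ret, 1 of the 11, was well above background only in DMSO cells, so it entered the count through the group where it was higher. In bulk RNA, fewer cells of a type and less RNA per cell cannot be told apart.

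Retinoid genes were mostly higher in 4-hydroxytamoxifen cells. Of the 9 genes, 7 rose and 0 fell, and Aldh1a3 and Dhrs3 did not pass. Cyp26a1, 1 of the 7, was well above background only in 4-hydroxytamoxifen cells, so it entered the count through the group where it was higher. With the filter on all 4 arrays, 8 of the genes were measured and 7 rose, Dhrs3 then among them. Of all genes, 72.6% were called in either direction with that filter. Over all 17727 genes, 69.4% were called, 40.4% as higher and 29.0% as lower. The median difference of the 9 genes was 1.12, against 0.11 over all genes. For each of the 9 genes, the 2 treated arrays lay wholly above or wholly below the 2 controls, as they did for 86.5% of all genes.

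**Figure D1:**
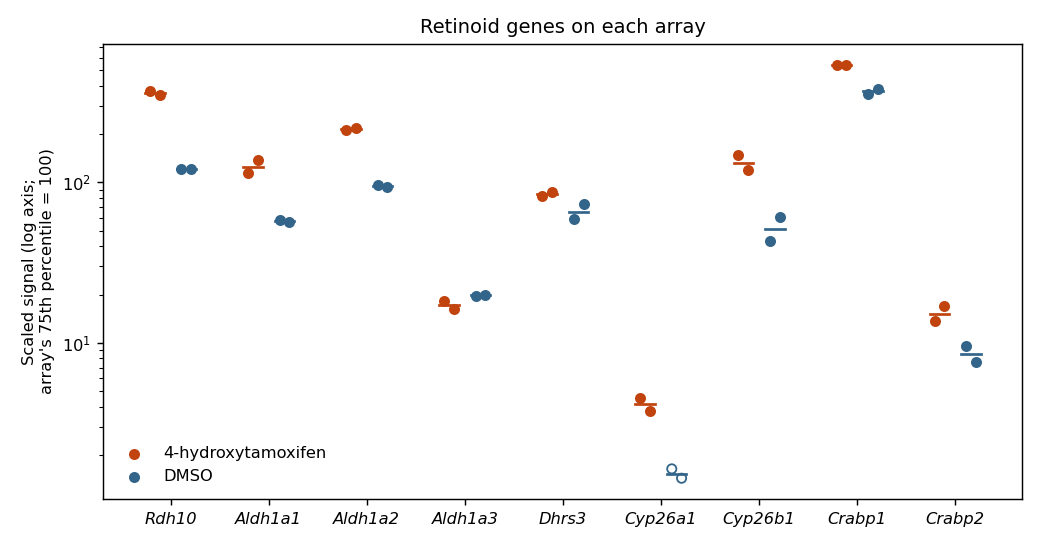
Scaled signal of the 9 retinoid genes on each array (log axis, array's 75th percentile = 100), with 4-hydroxytamoxifen arrays in orange and DMSO arrays in blue, a bar at the mean of the log values, and open circles where a group was not well above background. The groups do not overlap for any gene, Aldh1a3 is lower with 4-hydroxytamoxifen and the other genes are higher.

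Among the genes of retinoic acid synthesis, Rdh10, Aldh1a1 and Aldh1a2 rose. Rdh10, the retinol dehydrogenase of the initial step, was at 372 and 348 in 4-hydroxytamoxifen cells, against 121 and 121 in DMSO cells. Both treated arrays stood well above both controls, and the gene rose 2.98-fold, by 1.58 ± 0.07 (limma adjusted p = 0.000487). Of all genes, 5.57% had a difference at least as high. The size depends on the probe, and with the mean of its probes Rdh10 rose by 1.24.

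The Rdh10 value above comes from the brightest of 3 probes, at chromosome 1, positions 16123127 to 16123186 of mm9. That 60-base probe holds the same 25-base stretch at its bases 1 and 36, shown here because the largest of the 3 Rdh10 values rests on it:
Rdh10 probe, repeated unit: TGTATTAGTGTGGGTGTCTCTGTTA
Of 41174 probes on the array, 18 hold a repeat of at least that length. The other two Rdh10 probes, without such a repeat, lie at positions 16121478 to 16121537 and 16122062 to 16122121. They also rose, by 0.999 ± 0.11 and 1.14 ± 0.11 (limma adjusted p over all probes 0.00266 and 0.00193). On them the signals were 31.6 and 26.7, and 47.7 and 39.7, in 4-hydroxytamoxifen cells, against 14.0 and 15.2, and 19.5 and 19.9, in DMSO cells. All 3 probes rose, where 67.3% of all measured probes were called in either direction, by 1.998-fold and 2.21-fold on the dimmer probes and 2.98-fold on the brightest.

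Aldh1a2, the retinal dehydrogenase that makes most retinoic acid in the mouse embryo, was at 213 and 218 in 4-hydroxytamoxifen cells, against 95.9 and 93.1 in DMSO cells. It rose 2.28-fold, by 1.19 ± 0.06 (limma adjusted p = 0.000621), with the replicates of each group within a few percent of each other. Its probe lies on chromosome 9, positions 71143931 to 71143990 of mm9. Aldh1a1, a retinal dehydrogenase that Sertoli cells are known to express, was at 114 and 137 in 4-hydroxytamoxifen cells, against 58.3 and 56.5 in DMSO cells. It rose 2.18-fold, by 1.12 ± 0.11 (limma adjusted p = 0.00179), on a probe at chromosome 19, positions 20717764 to 20717823. The rises of Aldh1a1 and Aldh1a2 were exceeded or matched by 13.4% and 11.7% of all genes.

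Aldh1a3, the remaining retinal dehydrogenase of the family, did not pass. Its measured probe (chromosome 7, positions 73535785 to 73535844) was at 18.2 and 16.3 in 4-hydroxytamoxifen cells, against 19.6 and 20.0 in DMSO cells. Both treated arrays lay just below both controls, a difference of -0.20 ± 0.08 with a 95% interval of -0.43 to 0.02 (limma adjusted p = 0.0898). The interval leaves out a rise of the size seen for Aldh1a1 or Aldh1a2. With median scaling the difference was -0.38 and passed (limma adjusted p = 0.0149), and with quantile normalization it was -0.30 (adjusted p = 0.0378).

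Dhrs3, the reductase that returns retinal to retinol, was at 82.2 and 87.4 in 4-hydroxytamoxifen cells, against 59.2 and 73.2 in DMSO cells. The DMSO arrays lay farther apart than the treated ones, and the difference of 0.37 ± 0.13 did not pass (95% interval 0.02 to 0.71, limma adjusted p = 0.0614). A further Dhrs3 probe gave 0.34 ± 0.16 and did not pass either (adjusted p over all probes 0.121). The call turned on the processing: Dhrs3 passed under 5 of 14 alternatives, among them normexp background correction (0.30, adjusted p = 0.0124) and leaving out DMSO replicate 2 (0.52, adjusted p = 0.0140). The difference was 0.19 with median scaling and 0.21 without DMSO replicate 1. Both probes lie on chromosome 4, at positions 144517350 to 144517409 and 144517217 to 144517276 of mm9.

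Both genes of retinoic acid breakdown rose. Cyp26b1, the enzyme that Sertoli cells of the mouse fetal testis use to shield germ cells from retinoic acid, was at 147 and 120 in 4-hydroxytamoxifen cells, against 43.2 and 61.2 in DMSO cells. It rose 2.58-fold, by 1.37 ± 0.21 (limma adjusted p = 0.00616). It had the widest spread of the 9 genes, and the difference ran from 1.12 without DMSO replicate 1 to 1.62 without DMSO replicate 2. Its probe lies on chromosome 6, positions 84521952 to 84522011.

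Cyp26a1, the breakdown enzyme whose gene is a classical target of retinoic acid, was close to background. Its signals were 4.56 and 3.74 in 4-hydroxytamoxifen cells, against 1.64 and 1.43 in DMSO cells, where it was not well above background on either array. On these processed signals it rose at least 1.72-fold (limma adjusted p = 0.00162). For this bound, each DMSO array was given its dimmest signal that still stood well above background, which exceeded the signal of the probe. The bound does not carry over to normexp correction, where the difference was 0.37 (adjusted p = 0.00153), which is smaller than the bound. That correction adds to every signal a constant larger than the unscaled processed signals of this probe. The constant alone draws the difference towards 0, so 0.37 is no measure of the size of the rise. The direction held with and without that correction. With DMSO signals not well above background, the size of the rise is not settled by these arrays. The value rests on the only Cyp26a1 probe, at chromosome 19, positions 37775566 to 37775625 of mm9, which reads 5′ to 3′:
Cyp26a1 probe: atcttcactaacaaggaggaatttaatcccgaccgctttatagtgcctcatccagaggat

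Both retinoic acid binding proteins rose. Crabp1, which is expressed in spermatogonia and in embryonic mesenchyme of the mouse, was at 542 and 539 in 4-hydroxytamoxifen cells, against 358 and 385 in DMSO cells. The treated arrays were nearly equal and both above the controls, and Crabp1 rose 1.46-fold, by 0.54 ± 0.07 (limma adjusted p = 0.00351). With spike-in scaling the rise was 0.39 and did not pass (limma adjusted p = 0.103). Its probe lies on chromosome 9, positions 54616192 to 54616251.

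Crabp2, which delivers retinoic acid to its nuclear receptors, was at 13.7 and 16.9 in 4-hydroxytamoxifen cells, against 9.51 and 7.61 in DMSO cells. It rose 1.79-fold, by 0.84 ± 0.16 (limma adjusted p = 0.0121). Without 4-hydroxytamoxifen replicate 2 the rise was 0.69 and did not pass (limma adjusted p = 0.0553), and with normexp correction it was 0.46 and passed (adjusted p = 0.00235). Its probe lies on chromosome 3, positions 87752682 to 87752741. Of all genes, 30.8% and 21.1% had a difference at least as high as that of Crabp1 and Crabp2.

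**Figure D2:**
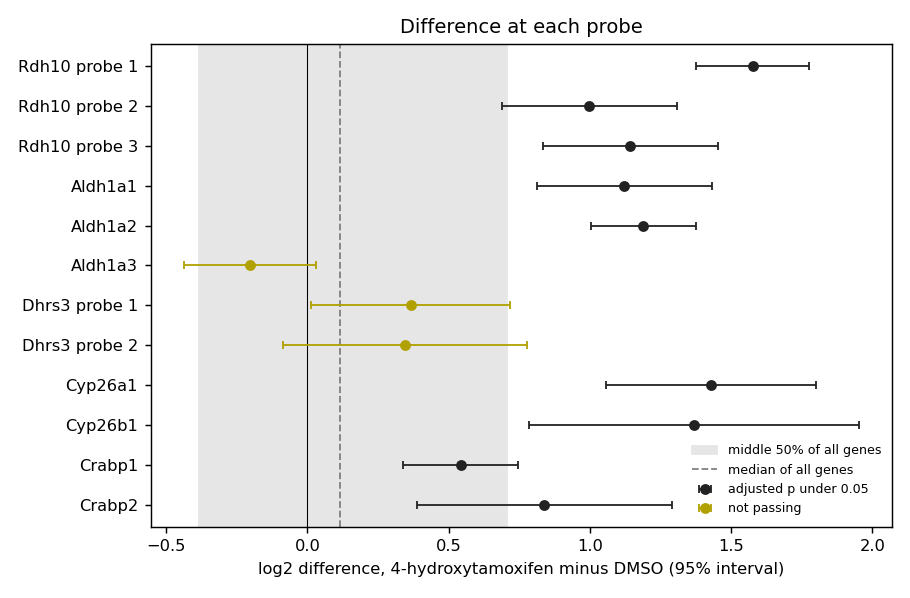
Log2 difference, 4-hydroxytamoxifen minus DMSO, with its 95% interval from the fit over all probes, for each measured probe of the 9 genes, beside the median of all genes (dashed, 0.11) and the span between their quartiles (grey, -0.38 to 0.71). Rdh10 probe 1, the brightest, stands at 1.58, above the other Rdh10 probes, and the probes of Aldh1a3 and Dhrs3 are the ones that did not pass.

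The promoters were searched for a retinoic acid response element, the DNA pattern to which RAR and RXR bind. The search took direct repeats of the hexamer AGGTCA, or of its variants AGTTCA or GGGTCA or GGTTCA, with 1, 2 or 5 bases between them, on both strands, in RefSeq windows of GRCm38.p6 from 250 bases before to 50 after a transcript start. No window was available for Rdh10, Aldh1a3 and Crabp2, which were not searched. Windows were available for the other 6 of the 9 genes, 9 windows in all. One held a match: Cyp26a1 has a repeat with 5 bases between, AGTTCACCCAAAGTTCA, on the strand opposite to the gene, 32 to 16 bases before the start. Of 32851 windows of all genes, 0.0974% hold a repeat with 5 bases between and 0.588% hold a repeat with any of the 3 spacings. The match is a description of the letters and not a measured binding site.
The 120 bases before that start, chr19:37697688-37697807 on the plus strand, are shown because the only match lies there, with the match in capitals, read on the gene's own strand:
Cyp26a1 promoter: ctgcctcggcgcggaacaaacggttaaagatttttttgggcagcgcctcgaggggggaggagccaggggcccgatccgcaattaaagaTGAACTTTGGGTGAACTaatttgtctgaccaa

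Other genes of the pathway, taken from lists by function, moved in both directions. The counts of this and the following lists stand beside 40.4% called higher and 29.0% called lower over all genes. Of the genes of retinol uptake and storage, 9 of 11 were measured, 2 rose and 2 fell, with a median of -0.14. Stra6l, a receptor for retinol-binding protein, rose by 1.45 ± 0.08 (0.75 with normexp correction), and Rbp4, the plasma retinol-binding protein, rose by 0.83 ± 0.08 (limma adjusted p = 0.000708 and 0.00167). Retsat, which saturates retinol, fell by 1.24 ± 0.07 and Dgat1, which can esterify retinol, fell by 0.84 ± 0.08 (limma adjusted p = 0.000707 and 0.00150).

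Of the further enzymes that act on retinoids or can do so, 14 of 22 were measured, 9 rose and 0 fell, with a median of 0.63. Adh4, 1 of the 9, was well above background only in 4-hydroxytamoxifen cells, so it entered the count through the group where it was higher. Bco1, which splits beta-carotene into retinal, was at 32.8 and 35.4 in 4-hydroxytamoxifen cells, against 4.30 and 4.44 in DMSO cells. It rose 7.80-fold, by 2.96 ± 0.07 (limma adjusted p = 0.000373), and by 1.59 with normexp correction. Adh1, an alcohol dehydrogenase that can oxidise retinol, rose by 1.74 ± 0.12, Cyp1b1 by 1.25 ± 0.10 and Rdh5, a retinol dehydrogenase of the visual cycle, by 1.23 ± 0.06 (limma adjusted p = 0.000901, 0.00126 and 0.000583). With normexp correction the rise of Adh1 was 1.08.

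Among the retinoid receptors, 1 of 6 rose and 3 fell. Rarb rose by 1.14 ± 0.08 (limma adjusted p = 0.000959), while Rxrg fell by 1.35 ± 0.10, Rxrb by 0.82 ± 0.07 and Rarg by 0.74 ± 0.12 by its brightest probe (limma adjusted p = 0.00108, 0.00129 and 0.00736), with other Rarg probes at -1.14 and 0.17. With normexp correction Rarb was at 0.55 and Rarg at -0.47. Of the retinoic acid target genes, 11 of 12 were measured, 8 rose and 1 fell, with a median of 1.18. Tgm2, a transglutaminase, rose by 1.88 ± 0.06, Meis1 by 1.53 ± 0.09 and Nrip1, a nuclear receptor corepressor, by 1.36 ± 0.10 (limma adjusted p at most 0.000984). Other Tgm2 probes gave 0.45, which did not pass, and 0.99, and a dimmer Meis1 probe gave 2.005 and did not pass. With normexp correction Meis1 was at 0.69, and with the mean of its probes Tgm2 was at 1.11. Stra8, the target required for meiosis, was at 682 and 784 in 4-hydroxytamoxifen cells, against 1178 and 1087 in DMSO cells, and fell by 0.63 ± 0.10 (limma adjusted p = 0.00653).

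**Figure D3:**
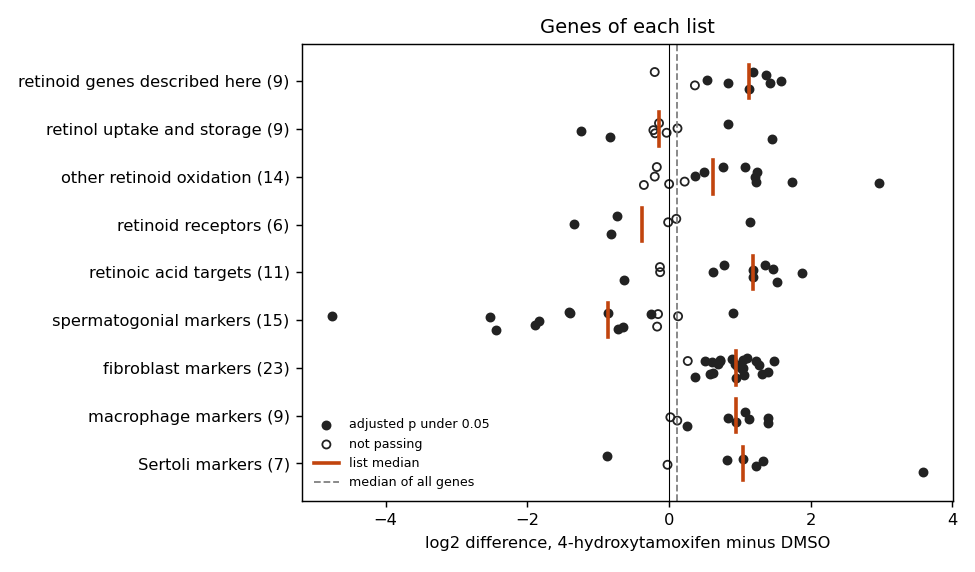
Log2 difference, 4-hydroxytamoxifen minus DMSO, of each measured gene by list, with the number measured in brackets, filled points for an adjusted p under 0.05, an orange bar at the list median and the median of all genes dashed. The 9 retinoid genes (median 1.12) and the retinoic acid targets (1.18) lie mostly right of 0, as do the fibroblast markers (0.95), while spermatogonial markers lie mostly left (-0.86).

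Markers of other cells moved in the same comparison as the retinoid genes, where 40.4% of all genes were called higher and 29.0% lower. Of 24 fibroblast markers, 23 were measured, and 22 rose and 0 fell, with a median of 0.95. The largest rises were Thbs1 (1.48 ± 0.11 by its brightest probe, and 0.91 and 0.71 by the others) and Pdgfrb (1.40 ± 0.07). Col1a1 (0.26) did not pass, and Fap was below the background filter. The summed fibroblast signal was 42958 and 45668 in 4-hydroxytamoxifen cells, against 23631 and 27020 in DMSO cells. Of 10 macrophage markers, 9 were measured, 7 rose and 0 fell (median 0.95), with Itgam below the filter. The largest rises were Adgre1 (1.40 ± 0.14) and Aif1 (1.40 ± 0.10). Csf1r rose by 0.25, and Cd68 (0.12) and Ptprc (0.02) did not pass. The summed macrophage signal was 3758 to 3848 in 4-hydroxytamoxifen cells, against 1715 to 1906 in DMSO cells. Lyz2 gave most of it, at 3415 and 3505, against 1537 and 1743. Of 10 Sertoli markers, 7 were measured, 5 rose and 1 fell (median 1.05). The largest rises were Cldn11 (3.59 ± 0.11, and 2.25 with normexp correction) and Dhh (1.33 ± 0.10). Wt1 fell (-0.88 ± 0.10) and Rhox5 did not pass (-0.02). The summed Sertoli signal was 1237 to 1308 in 4-hydroxytamoxifen cells, against 578 to 648 in DMSO cells. Inhbb gave most of it, at 800 and 731, against 345 and 397. The defining Sertoli genes Amh, Gata4 and Fshr did not pass the filter. Of 6 Leydig markers, 2 were measured, Cyp17a1 fell (-0.43 ± 0.11, and -0.23 with normexp correction), and Cyp11a1, Hsd3b1 and Lhcgr were below the filter. The summed Leydig signal was 21.5 to 23.3 in 4-hydroxytamoxifen cells, against 26.7 to 28.3 in DMSO cells. The part of these cells in the rise of the retinoid genes was not tested.

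The genes whose 4 values, each taken minus its own mean, lay closest to those of Rdh10 were Cry1, Lat2, Ntrk2, Rassf6 and Amy1, at root mean square distances of 0.0083, 0.014, 0.016, 0.021 and 0.022 on the log2 scale. They were taken from 13903 named genes well above background on all 4 arrays, and their differences ran from 1.55 to 1.58. Another Ntrk2 probe gave 2.84, and with normexp correction Lat2 and Rassf6 were both at 0.87. With 4 arrays in 2 groups, closeness describes the size of the difference and little else.

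**Figure D4:**
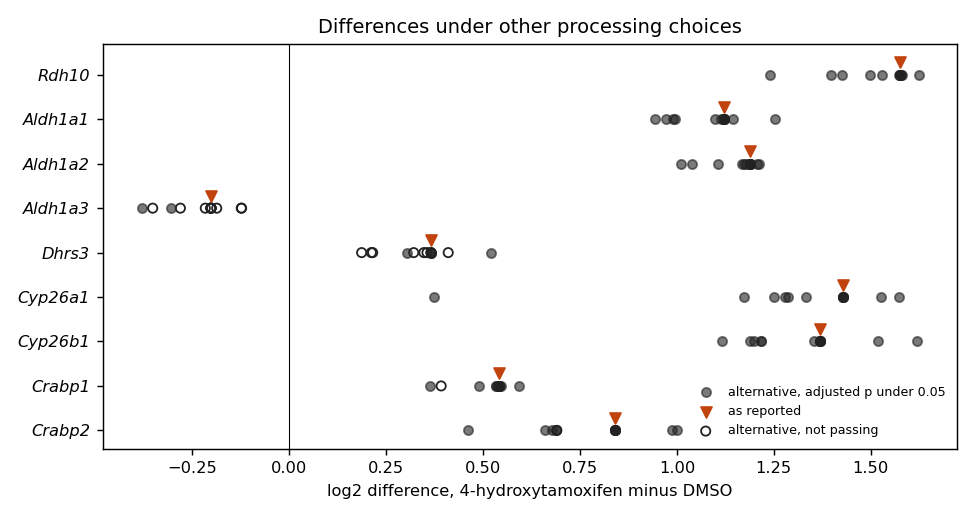
Log2 difference, 4-hydroxytamoxifen minus DMSO, of each retinoid gene as reported (orange triangle) and under up to 14 other processing choices (circles, open where the adjusted p missed 0.05). No gene changes sign, and Cyp26a1, not well above background in DMSO cells, moves farthest, to 0.37 with normexp correction. That correction adds a constant to every signal, which alone draws the differences of dim probes towards 0.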

How the data were processed

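The deposited scanner files hold intensity values per spot on a linear scale. Feature Extraction made them with spatial and multiplicative detrending on and the background correction switch off, per the file headers; its version is 10.7.3.1 there and 9.5 in the submitters' processing notes. The authors' deposited value table holds log2 values that equalled the scanner signals plus 1 constant per array (0.275 to 0.362), within 0.05 for 99.9% of probes, and served as an alternative; its column medians were 6.35, 6.35, 6.16 and 6.18 for 4-hydroxytamoxifen replicates 1 and 2 and DMSO replicates 1 and 2.

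Control and outlier spots (60 to 71 per array) were left out, spots of a probe averaged, and log2 processed signals centred on each array's 75th percentile over probes (676 to 718). No spot was saturated (0 on each array). Probes well above background on at least 2 arrays were kept, and the brightest stood for its gene. RefSeq (GRCm38.p6) named 32957 of 41174 probes; coordinates of probes are the files' own, on mm9. The comparison used limma 3.58.1 (R 4.3.3, lmFit and eBayes), which was tested on simulated data. Far fewer genes changed in the simulation than were called here, so it does not cover a shift of most genes. The smallest two-sided p that exact permutation of 2 and 2 arrays allows is 0.333, and the number of arrays limits the precision.

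The members and lists were chosen with earlier results of these data known. Named genes were the members, Nanos2, up to 4 passing genes per direction of each pathway list, 2 of each marker list, and the 5 genes nearest to Rdh10. Further genes were named after their values were seen and are not counted in the check of processing choices. Some genes of the pathway lists are not reported here by name. Alternatives covered background correction, scaling, the value table, filters, probe choice, moderation, a replicate block and leaving out each array. Protein sequences were not used here.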

Additional observations from a re-analysis of the deposited data

How the results depend on the processing

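Of the 9 retinoid genes, 5 kept their direction and their side of the threshold under the alternatives that gave them a value: Rdh10 (1.24 to 1.62), Aldh1a1 (0.94 to 1.25), Aldh1a2 (1.01 to 1.21) and Cyp26b1 (1.12 to 1.62) under 14, and Cyp26a1 under 13, since the filter on all 4 arrays dropped it. The order of Rdh10 and Cyp26b1 turned when probes were averaged per gene (1.24 and 1.37) and without DMSO replicate 2 (1.57 and 1.62). No result turned its sign. Aldh1a3 passed as lower with quantile normalization (-0.30) and median scaling (-0.38), which made the count of lower members 1 in both. Dhrs3 passed with normexp correction (0.30), with the filter on all 4 arrays, with a trend in the moderation and with the replicate block (0.37 each), and without DMSO replicate 2. Calls were lost for Crabp1 with spike-in scaling (0.39) and for Crabp2 without 4-hydroxytamoxifen replicate 2. Without 1 array each, Dhrs3 ran from 0.21 to 0.52 and Crabp2 from 0.679 to 0.999. The count of members called higher ran from 6 to 8. Over all genes, 7161 were higher and 5136 lower, against 5823 and 6660 with median scaling, which put the median of all genes at -0.06, as spike-in scaling did at -0.04, in place of 0.11. Of 32 other named genes, 31 kept their call, and Cyp17a1 did not pass with no filter (adjusted p = 0.0794) or without replicate 1 of 4-hydroxytamoxifen (0.0835) or of DMSO (0.0807). The causes were not tested. Replicate numbers were not used to pair arrays, since the deviations of same-numbered arrays correlated at -0.044; the block called 11203 genes in place of 12297. For Cyp26a1, whose DMSO signals were not well above background, no size was read from these differences, and the calls rest on signals near background.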
